A study of Rattus norvegicus with 3 samples.

Results

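miR-199a, miR-199b and miR-214 are small regulatory RNAs best known from fibroblasts, smooth muscle and other mesenchymal cells. They were followed here in vesicle RNA of cultured rat astrocytes. The members are the rows whose miRNA name, without arm and species prefix, is miR-199a, miR-199b or miR-214 and whose prefix is rat (rno) or mouse (mmu). That gave 5 rows of the 1480 in each file: rno-miR-199a-3p, rno-miR-199a-5p, mmu-miR-199b-5p, rno-miR-214-3p and mmu-miR-199a-3p. Of these, 4 had at least 50 counts in some library. The fifth, the mouse-named miR-199a-3p row, had 17 counts in 1 library and 0 in the others.

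Per the labels, wild-type primary astrocytes from newborn rats were left untreated, or were given IL-1α, TNF-α and C1q, or IL-4 and C1q, on day 6 of culture. Small RNA of the extracellular vesicles that they released was sequenced, after 24 h for the treated cells. No treatment day or hours are listed for the untreated library, so its collection time is not given here. The inflammatory mixture is widely used to bring astrocytes into a neurotoxic reactive state, and IL-4 is linked to alternative activation; both mixtures held C1q, and the untreated cells received neither. Each condition was 1 library, all labelled as the same batch, and held 6318839 miRNA counts for the untreated cells, 12327301 for IL-1α/TNF-α/C1q (called the inflammatory library from here on) and 7779718 for IL-4/C1q (the IL-4 library). One protocol sentence speaks of RNA from harvested astrocytes, so a vesicle source is stated but not without contradiction. With 1 library a condition there is no test between conditions: ratios compare libraries, and every interval given is a 95% interval for counting error alone. CPM is a miRNA's count per 1e6 miRNA counts of its library.

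A microRNA guides the silencing complex to messenger RNAs that pair with its seed, bases 2 to 8 from the 5′ end. Each hairpin precursor yields a 5p and a 3p arm, which have different seeds and so different targets. In mouse, miR-199a-2 and miR-214 are cut from one long non-coding transcript, Dnm3os, which runs antisense to the dynamin gene Dnm3 and is expressed in mesenchymal tissues. miR-199b comes from another dynamin gene; in mouse its 3p arm has the same sequence as that of miR-199a, so 3p reads cannot be assigned to either, while the 5p arms differ.

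The rat sequences of the 2 hairpins show what the rows can be told apart by. They are RefSeq entries of build GRCr8 on chromosome 13, plus strand, with the seed in capitals:
rno-miR-199a-5p: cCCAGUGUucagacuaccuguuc
rno-miR-199a-3p: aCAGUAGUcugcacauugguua
rno-miR-214-3p: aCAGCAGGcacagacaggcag
Each of these seeds occurs in 1 of the 724 mature rat sequences of the RefSeq table, so in that table no other miRNA shares a seed with them. No sequence of miR-199b-5p was available, so its seed could not be compared with that of miR-199a-5p, and the 2 may share one. In the same assembly, Mir199a2 and Mir214 are neighbours with 0 annotated genes between them, and both lie inside the span of Dnm3, which is on the minus strand.

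The deposited names carry tags for the ends of the sequence counted. The miR-199a-5p and miR-199b-5p rows have no tag, the miR-199a-3p row has the tag R-1 and the miR-214-3p row the tag L+1. The sources used here do not define these tags. By the usual reading, R-1 is 1 base less at the 3′ end, which leaves the seed as it is, and L+1 is 1 base more at the 5′ end. Extended by 1 base of its RefSeq hairpin, miR-214-3p has a shifted seed, in capitals:
rno-miR-214-3p_L+1: uACAGCAGgcacagacaggcag
That shifted seed occurs in 0 of the 724 mature rat sequences. Such a 5′ tag was uncommon: 31 of 548 rat-named rows, 5.66%, had an L+ tag, 22 of them L+1, whereas 223 rows, 40.7%, had an R tag alone. The added base lies just before the 3p arm in the hairpin, printed here with both RefSeq mature arms in capitals to show its place:
Mir214 hairpin: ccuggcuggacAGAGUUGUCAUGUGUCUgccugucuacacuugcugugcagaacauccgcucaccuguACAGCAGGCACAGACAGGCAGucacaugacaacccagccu

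Together the 5 rows took 0.535% of the miRNA counts in the untreated library, 1.58% in the inflammatory library and 1.88% in the IL-4 library. Most of this was the 3p arm of miR-199a, with 69.6%, 71.0% and 68.4% of the members' counts. miR-199a-5p held 22.5%, 22.8% and 25.2%, and miR-199b-5p 5.12%, 4.88% and 4.95%. miR-214-3p held 2.77% of the members' counts in the untreated library and only 1.33% and 1.41% in the treated ones.

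miR-199a-3p, known in human liver cancer cells to repress MTOR and MET, had 23551 untreated counts, 137990 in the inflammatory library and 100170 in the IL-4 library. As a level this was 3727 CPM (exact Poisson interval 3680 to 3775), 11194 CPM (11135 to 11253) and 12876 CPM (12796 to 12956). It stood at rank 41 of the untreated library and at ranks 19 and 16 of the treated ones. Both treated libraries were above the untreated one, and the IL-4 library was the highest.

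miR-199a-5p, which represses Hif1a in rat heart muscle cells, had 7600, 44333 and 36962 counts in the same order. Its levels were 1203 CPM (1176 to 1230), 3596 CPM (3563 to 3630) and 4751 CPM (4703 to 4800). The order of the libraries was that of the 3p arm, and in each library the level was well under that arm.

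miR-199b-5p, the 5p arm of the paralog hairpin, had 1730, 9495 and 7252 counts. That was 274 CPM (261 to 287) in the untreated library, 770.2 CPM (755 to 786) in the inflammatory library and 932 CPM (911 to 954) in the IL-4 library. The row is mouse-named, so it shows the database entry to which the reads were assigned. Reads that fit both 5p arms would be uncertain between them.

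miR-214-3p, which represses Ezh2 in mouse muscle, was the least abundant of the 4. It had 938, 2594 and 2067 counts, or 148 CPM (139 to 158), 210.4 CPM (202 to 219) and 266 CPM (254 to 277). The libraries again stood in the order untreated, inflammatory and IL-4, with smaller steps. In each library the levels ran from high to low as miR-199a-3p, miR-199a-5p, miR-199b-5p and miR-214-3p, and no 2 neighbours in that order had overlapping intervals. This order is one of reads, and the intervals leave out any difference in how well each sequence was captured.

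**Figure D1:**
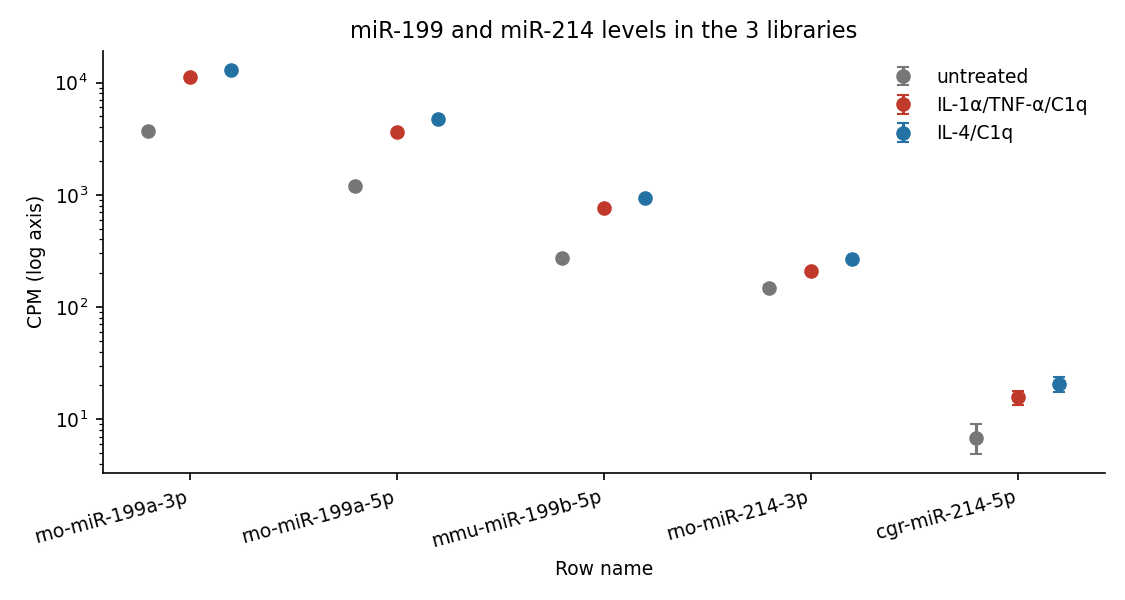
Level in CPM on a log axis of miR-199a-3p, miR-199a-5p, miR-199b-5p, miR-214-3p and the hamster-named miR-214-5p row in each of the 3 libraries, with exact Poisson 95% intervals for counting error (bars, mostly smaller than the points). All 5 are lowest in the untreated and highest in the IL-4 library, with miR-199a-3p between 3727 and 12876 CPM and miR-214-3p between 148 and 266 CPM.

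The first comparison asks how vesicle RNA differed once astrocytes had received the inflammatory mixture. The 3 miR-199 arms were close to 3-fold higher in the inflammatory than in the untreated library, and miR-214-3p was not. miR-199a-5p was 2.99-fold higher (2.92 to 3.06), and miR-199b-5p 2.81-fold (2.67 to 2.96). miR-199a-3p, with most of the reads, was 3.003-fold higher (2.96 to 3.05). miR-214-3p was 1.42-fold higher (1.32 to 1.53), a log2 ratio of 0.50. A miRNA was called where its ratio was at least 2-fold, its interval left out 1 and 50 or more counts were in the higher library. By this rule 3 of the 4 were called higher and 0 lower, while 13.2% of all 514 miRNAs tested were called higher and 21.2% lower. The median log2 ratio, on CPM + 1, was 1.53 over the 4 members and −0.07 over all tested. Of 373 rat-named miRNAs tested, 17 had a higher ratio than miR-199a-3p and 116 a higher one than miR-214-3p.

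The second asks the same of IL-4 and C1q. The 3 arms named above were called here too. miR-199a-5p was 3.95-fold higher (3.85 to 4.05) and miR-199b-5p 3.405-fold (3.23 to 3.59), and miR-199a-3p stood between them at 3.45-fold (3.41 to 3.504). miR-214-3p was 1.79-fold higher (1.66 to 1.94), short of 2-fold. With DESeq2 size factors it was 2.02-fold and with the authors' normalization 2.01-fold, which passes the rule. The background was 12.8% of 486 miRNAs called higher and 23.7% called lower, with a median log2 ratio of −0.17 against 1.78 over the 4 members. Both comparisons use the same untreated library, so any way in which that library stands apart enters both.

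The treated libraries differed less from each other, a comparison free of the untreated library. miR-199a-3p was 1.15-fold higher in the IL-4 library than in the inflammatory library (1.14 to 1.16), miR-199b-5p 1.21-fold (1.17 to 1.25), miR-214-3p 1.26-fold (1.19 to 1.34) and miR-199a-5p 1.32-fold (1.30 to 1.34). All 4 intervals lay above 1, but counting error leaves out variation between cultures, which 1 library cannot show. 0 of the 4 were called, against a background of 1.28% of 467 miRNAs called higher and 1.07% called lower. The median log2 ratio of the 4 was 0.30, and that of all tested −0.06.

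**Figure D2:**
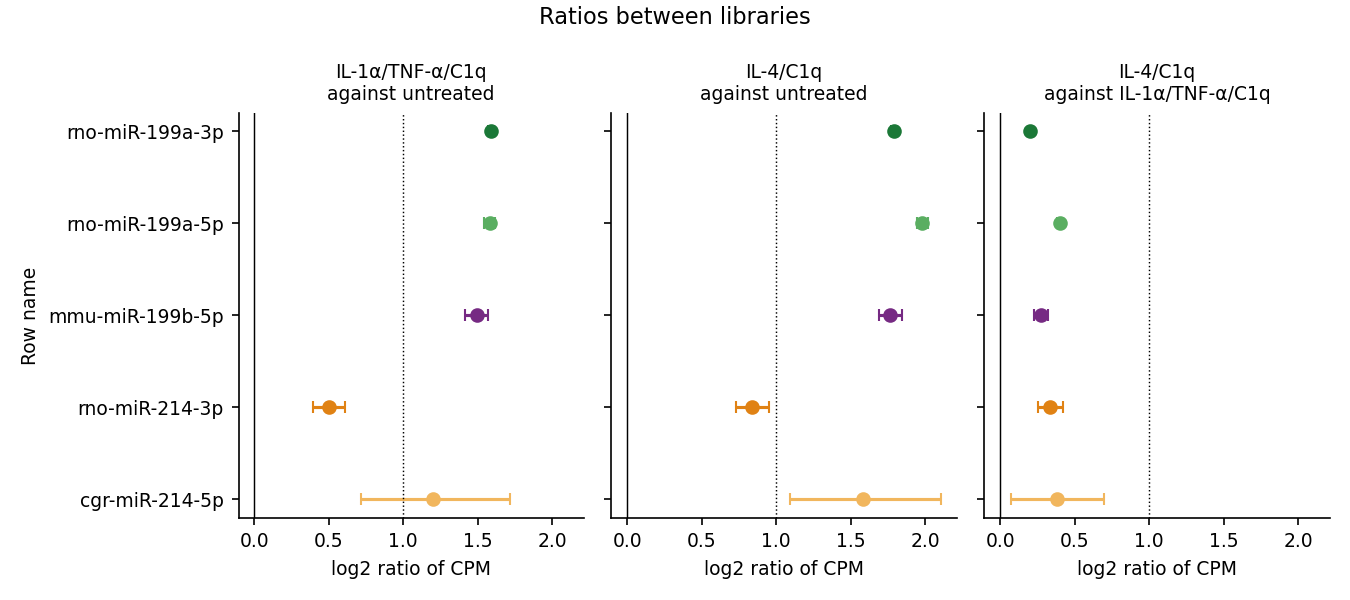
Log2 ratio of CPM for the same 5 rows in each of the 3 comparisons, with 95% intervals for counting error; the solid line marks no difference and the dotted line 2-fold. The 3 miR-199 arms lie beyond 2-fold in both comparisons with the untreated library, miR-214-3p lies at 0.50 and 0.84, and all lie within 2-fold between the treated libraries.

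**Figure D3:**
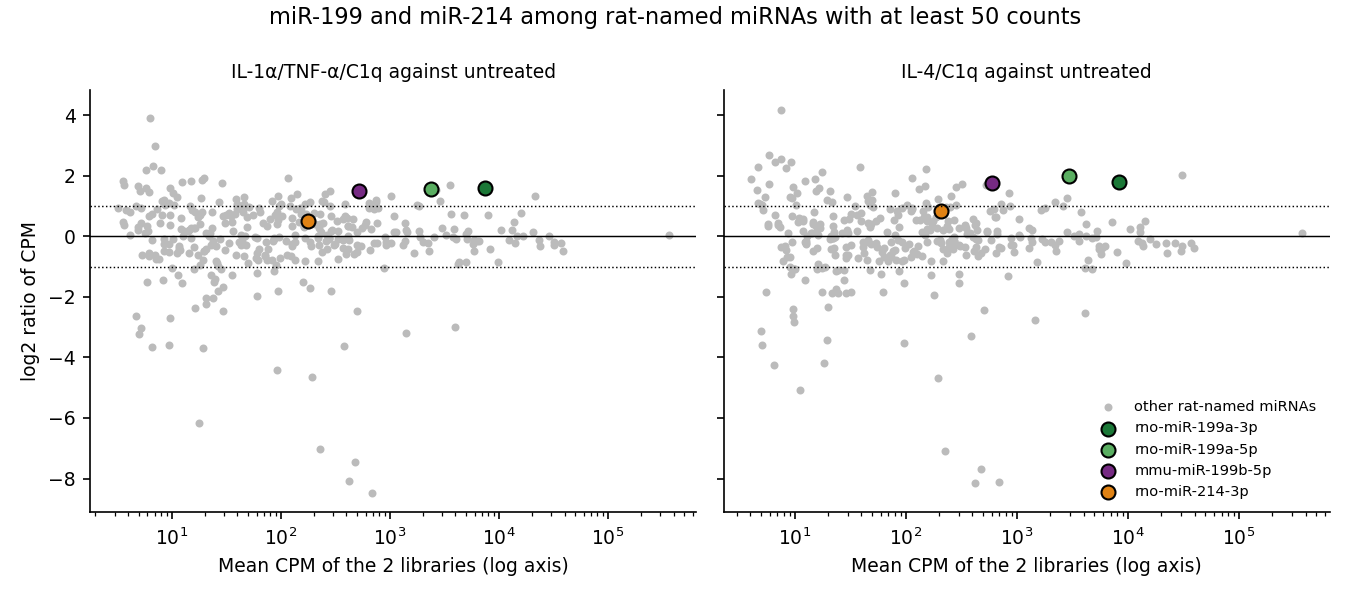
Mean CPM of the compared libraries on a log axis against the log2 ratio of CPM, for rat-named miRNAs tested that had a count above 0 in both (grey), with miR-199a-3p, miR-199a-5p, miR-214-3p and the mouse-named miR-199b-5p marked. Dotted lines mark 2-fold; the miR-199 arms lie above the upper one in both panels and miR-214-3p below it.

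Shares within one library do not depend on how libraries are scaled. Of the reads of the 2 miR-199a arms, 3p made up 75.6% of the untreated (Clopper-Pearson interval 75.1 to 76.1%), 75.7% in the inflammatory library (75.5 to 75.9%) and 73.0% in the IL-4 library (72.8 to 73.3%). The intervals of the untreated and inflammatory libraries overlapped, and that of the IL-4 library lay below both. In reads, there were 310 of miR-199a-3p per 100 of miR-199a-5p in the untreated library, 311 in the inflammatory library and 271 in the IL-4 library. The ratio in the IL-4 library was 0.875 times that of the untreated library (Woolf interval 0.850 to 0.900). With miR-199b-5p counted among the 5p reads, the 3p share was 71.6%, 71.9% and 69.4%.

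Among the miR-199 5p reads, miR-199b-5p made up 18.5% in the untreated library (17.8 to 19.3%), 17.6% in the inflammatory library (17.3 to 18.0%) and 16.4% in the IL-4 library (16.1 to 16.8%). The paralog share was highest in the untreated and lowest in the IL-4 library. Reads of miR-199b-5p per 100 of miR-199a-5p were 22.8, 21.4 and 19.6, which is 0.941 times the untreated value in the inflammatory library (0.889 to 0.996) and 0.862 times in the IL-4 library (0.813 to 0.913). The reads of the shared 3p arm cannot be divided between the hairpins, so no such share can be given for them.

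The balance between miR-214-3p and miR-199a reads differed more than that between the arms of miR-199a. The miR-199a-3p reads may include those of miR-199b, so this is not a balance of the 2 neighbouring hairpins alone. There were 3.98 reads of miR-214-3p per 100 of miR-199a-3p in the untreated library, 1.88 in the inflammatory library and 2.06 in the IL-4 library. Against the untreated library this was 2.12 times lower in the inflammatory library (1.96 to 2.29) and 1.93 times lower in the IL-4 library (1.78 to 2.09). Set against miR-199a-5p, miR-214-3p was 2.11 times lower (1.95 to 2.28) and 2.21 times lower (2.04 to 2.39). The counts do not show which hairpin gave the miR-199a-5p reads. This second pairing is therefore not shown to be a balance of the 2 neighbouring hairpins either. The miR-214-3p count is that of the single L+1 row; reads with other ends are not analysed here.

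The other arm of miR-214 has no rat- or mouse-named row. A Chinese hamster-named row, cgr-miR-214-5p, which the membership rule leaves out, had 43, 193 and 159 counts, or 6.81, 15.7 and 20.4 CPM. Its sequence was not available, so it may be another stretch than the RefSeq 5p arm in capitals in the hairpin above. The hamster-named row is compared here by its name alone. This row was 2.30-fold higher in the inflammatory library (1.65 to 3.28) and 3.003-fold higher in the IL-4 library (2.13 to 4.31), so it was called in both, unlike miR-214-3p. Reads of this row per 100 of miR-214-3p were 4.58, 7.44 and 7.69. That balance was 1.62 times higher in the inflammatory library than in the untreated library (1.16 to 2.28) and 1.68 times higher in the IL-4 library (1.19 to 2.37), on 43 reads of the 5p row in the untreated library.

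The rows with few counts add little. The mouse-named miR-199a-3p row, tagged R+2, held 0.0123% of the miR-199a-3p reads in the inflammatory library (0.00718 to 0.0197%). Where it had 0 counts, 5 counts, under which few whole values in these files lie, would be 0.791 CPM in the untreated and 0.643 CPM in the IL-4 library. A Tasmanian devil-named miR-199a 5p row and 3 bovine-named miR-199c rows had at most 11 counts each. rno-miR-3120, whose gene overlaps Mir214 on the opposite strand, had 6 untreated counts and 0 in either treated library. At these counts it could not be compared between libraries.

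**Figure D4:**
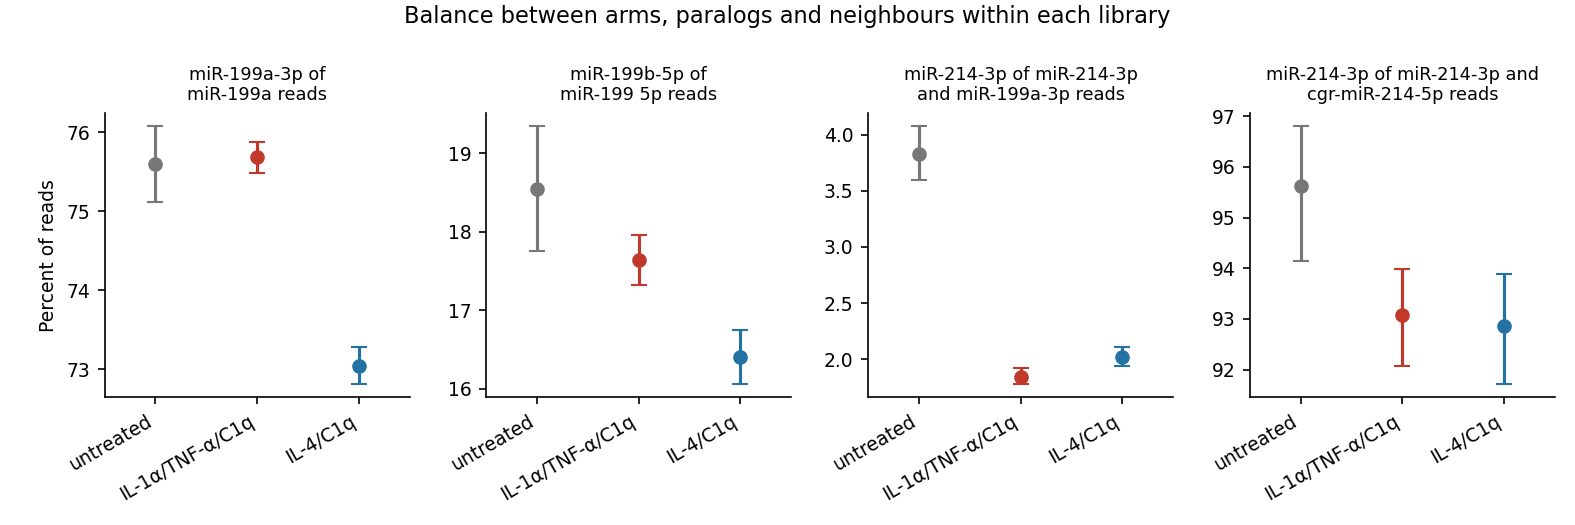
Percent of reads in each of the 3 libraries, with Clopper-Pearson 95% intervals for counting error, for miR-199a-3p among miR-199a reads, miR-199b-5p among miR-199 5p reads, miR-214-3p among the reads of miR-214-3p and miR-199a-3p, and miR-214-3p among those of miR-214-3p and the hamster-named miR-214-5p; the axes do not start at 0. The 3p share of miR-199a lies between 73.0% and 75.7%, while the share of miR-214-3p beside miR-199a-3p is 3.83% in the untreated library and 1.85% and 2.02% in the treated ones.

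Other miRNAs known from mesenchymal cells were called in both directions. All 12 on the list had a row. In the inflammatory library 5 were called higher and 3 lower and the median log2 ratio was 0.77, and in the IL-4 library 4 higher and 3 lower, with 0.75. Over all miRNAs tested the shares were 13.2% higher and 21.2% lower in the inflammatory library and 12.8% and 23.7% in the IL-4 library, with medians of −0.07 and −0.17, so the 3 of 12 called lower are near the background. On the higher side in both comparisons were both arms of miR-143 and miR-145-3p. They come from the miR-143 and miR-145 cluster, which is known to promote the contractile smooth muscle state. miR-143-3p had 12140, 30577 and 49047 CPM, so 2.52-fold and 4.04-fold higher than untreated. Its only row carries a substitution tag, so without such rows 11 of the list have a row, and 4 and 3 are called higher. miR-145-5p, of the same cluster, was 1.75-fold higher (1.57 to 1.95) and 2.97-fold higher (2.67 to 3.32), called in the IL-4 library alone. The cell cycle regulators miR-322-5p and miR-503-5p were called in the inflammatory library alone, at 2.12-fold (1.90 to 2.37) and 2.63-fold (2.39 to 2.90), against 1.65-fold and 1.91-fold in the IL-4 library. miR-503-5p was called there too with TMM factors (2.08-fold), DESeq2 size factors (2.16-fold), the authors' normalization (2.15-fold) and totals without the most abundant miRNA (2.01-fold).

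On the lower side in both comparisons were the miR-10 pair miR-10b-5p and miR-10a-5p, which lie in Hox gene clusters and mark cells of posterior body position, and miR-708-5p. miR-10b-5p had 2546, 277 and 374 CPM, so 9.19-fold and 6.80-fold lower than untreated. miR-708-5p had 21.5, 10.2 and 10.2 CPM, 2.11-fold (1.64 to 2.70) and 2.12-fold (1.59 to 2.83) lower. Its call was lost in both comparisons with DESeq2 size factors (1.94-fold and 1.88-fold) and the authors' normalization (1.97-fold and 1.89-fold), and in the IL-4 library also with TMM factors (1.95-fold). The DNA methyltransferase regulator miR-152-3p was 1.67-fold and 1.74-fold higher, miR-31a-5p 1.33-fold and 1.42-fold, and miR-22-3p had log2 ratios of −0.13 and −0.16; none of these was called.

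The 8 neural and glial miRNAs of the second list had ratios under 1 in both comparisons, mostly within 2-fold. None was called higher in either comparison. For miR-338-3p in the inflammatory library the ratio was 0.89, with an interval that took in 1 (0.73 to 1.09). In the inflammatory library 1 of 8 was called lower, with a list median log2 ratio of −0.49, and in the IL-4 library 3 of 8, with −0.69. The shares of all miRNAs called lower were 21.2% and 23.7%, so the count in the inflammatory library is not above the background. The neuronal miR-124-3p had 97.5, 24.9 and 27.4 CPM, 3.91-fold lower (3.41 to 4.50) and 3.56-fold lower (3.04 to 4.18) than untreated. miR-9a-3p, of the neural progenitor and astrocyte miRNA miR-9, was 2.13-fold lower in the IL-4 library (2.09 to 2.16) and the oligodendrocyte miRNA miR-338-3p 2.04-fold (1.57 to 2.66). These last calls depended on the scaling: with TMM factors, DESeq2 size factors or the authors' normalization miR-124-3p was the only 1 of 8 called in the IL-4 library, and miR-338-3p lost its call also with totals without the most abundant miRNA (1.95-fold) and without substituted rows (1.97-fold). The 5p arm miR-9a-5p, with far more reads than miR-9a-3p, had log2 ratios of −0.47 and −0.40.

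miR-199a-3p can be set against a miRNA of each list within a library, a pairing chosen with the values known. There were 8.35 reads of miR-199a-3p per 100 of miR-9a-5p in the untreated library, 34.8 in the inflammatory library and 37.98 in the IL-4 library, 4.17 (4.11 to 4.23) and 4.55 times (4.48 to 4.62) the untreated value. Per 100 reads of miR-143-3p there were 30.7, 36.6 and 26.3. Beside the neural miRNA miR-199a-3p was thus several-fold higher in both treated libraries, whereas beside miR-143-3p it was 1.19 times higher in the inflammatory library (1.17 to 1.21) and 1.17 times lower in the IL-4 library (1.15 to 1.19). miR-143-3p does not stand for its list, of which 5 were called higher and 3 lower in the inflammatory library, and 4 and 3 in the IL-4 library. miR-10b-5p of that list was 9.19-fold and 6.80-fold lower than untreated, so a pairing with it would give another balance.

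**Figure D5:**
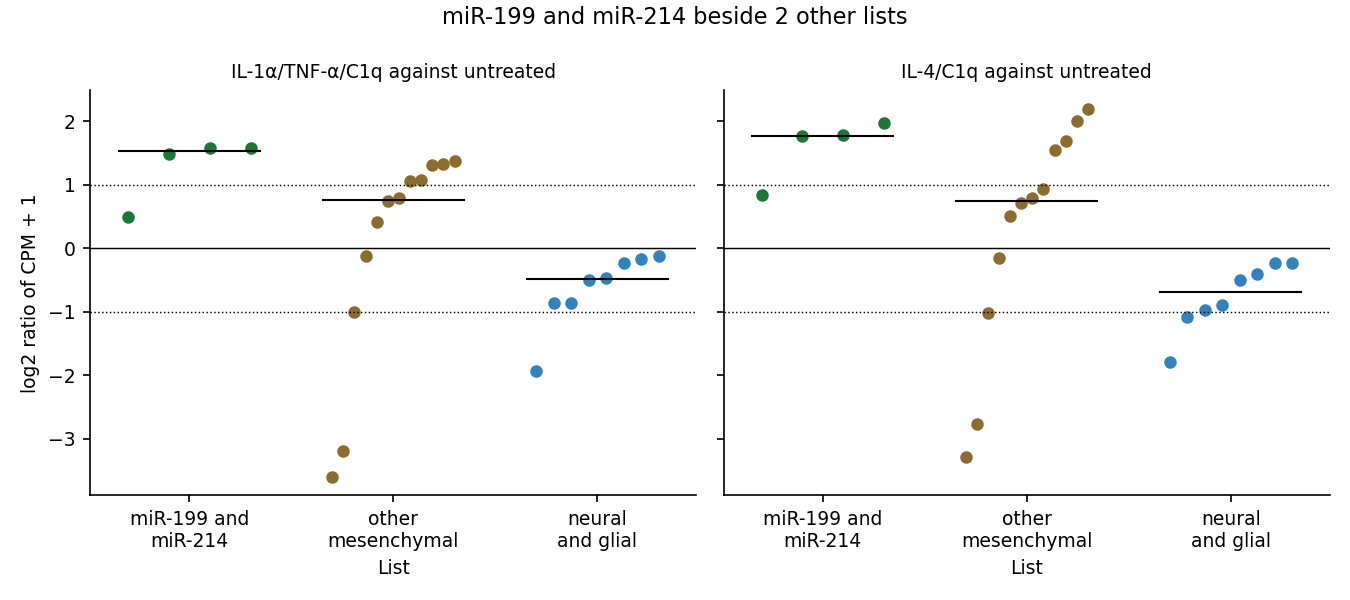
Log2 ratio of CPM + 1 against the untreated library for each miRNA (points, in order of value) of miR-199 and miR-214, of the other mesenchymal list (12) and of the neural and glial list (8); horizontal bars are list medians and dotted lines 2-fold. The members lie at or above 0.50, the mesenchymal list spreads from under −3 to above 1, and the neural and glial list lies below 0.

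Markers of other cell types differed between the same libraries. All 3 fibroblast and mesenchymal markers, miR-143-3p, miR-145-5p and miR-10b-5p, had counts, and summed to 14752, 30971 and 49620 CPM in the order untreated, inflammatory and IL-4, most of it miR-143-3p. These markers went opposite ways: miR-143-3p and miR-145-5p were highest in the IL-4 library, and miR-10b-5p was highest in the untreated library. All 4 astrocyte and neural markers were among the abundant miRNAs and summed to 103918, 76941 and 77995 CPM. The 4 microglia and leukocyte markers summed to 180.3, 12.98 and 68.1 CPM, with miR-142-3p at 5, 0 and 0 counts. The erythrocyte marker miR-451-5p had 837, 3.08 and 2.96 CPM, and the 2 epithelial markers 1743, 18.8 and 19.4 CPM. The part of these differences in the miR-199 and miR-214 ratios was not tested. In vesicle RNA, more vesicles from one cell type and more of a miRNA per vesicle cannot be told apart.

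The rat-named miRNAs with levels most like those of miR-199a-3p were sought by distance, the Euclidean distance between log2(CPM + 1) profiles over the 3 libraries, each centred on its own mean. Of 286 miRNAs with at least 200 counts in their highest library, the nearest 5 were miR-381-3p, miR-329-5p, miR-300-3p, miR-134-5p and miR-541-5p, at distances of 0.07, 0.12, 0.16, 0.22 and 0.24, beside a median of 1.42 over all 286. miR-381-3p had 150 CPM untreated, 421 in the inflammatory library and 499 in the IL-4 library. In mouse these 5 belong to the imprinted Dlk1-Dio3 miRNA cluster. Measured in the same way, miR-199b-5p lay at 0.07, miR-199a-5p at 0.16 and miR-214-3p at 0.84, with 57 of the 286 nearer than miR-214-3p. A profile over 3 libraries is a short one, and all distances share the untreated library. In that library miR-329-5p had only 42 counts, and its 3.54-fold ratio in the inflammatory library had a wide interval (2.55 to 5.02). Its distance thus depends on the added 1 CPM. The untreated counts of miR-381-3p and miR-300-3p, 948.5 and 880.5, hold fractions, so they are estimated counts.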

How the data were processed

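Small RNA sequencing gave 1 deposited table per library. Per the file headers, each holds a raw column of estimated counts and a normalized column. Fractions were found in 237, 140 and 151 rows of the deposited estimated counts (tolerance 1e-06) and the deposited signal was the count times 1.25, 0.684 and 1.14. Which aligner, miRNA database or build was used was not found in the labels or headers. Predicted candidates (at most 0.0662% of counts) were left out, and rows of a name were summed, giving 919 names. Counts were rounded for intervals. Ratio intervals are exact, conditional on the summed count of both libraries; balances of reads have Woolf intervals. Intervals cover counting error only and treat each read as a separate draw. Reads copied by PCR are not separate molecules, so the intervals may be too narrow even for that error. The calculation was tested on simulated data. Lists, members and the rule for named miRNAs (members, both lists, the 5 nearest profiles) were chosen with earlier results of these data known. Floors use 5 counts. Tools were Python 3.11.15, scipy 1.17.1, edgeR 4.0.16 (TMM factors) and DESeq2 1.42.0 (size factors). Alternatives were other scalings, row choices, pseudocounts and minimums.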

Additional observations from a re-analysis of the deposited data

How the results depend on the processing

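Of 132 recomputed ratios of the 4 members, 129 stayed on the same side of the call and 0 reversed. The other 3 were miR-214-3p with IL-4/C1q against untreated, which passed with DESeq2 size factors (2.02-fold), the authors' normalization (2.01-fold) or a 1.5-fold minimum (1.79-fold). The 129 include ratios whose call was fixed in advance. The call does not use the pseudocount, and each of the 4 had well over 50 counts in every library, so neither setting could change it. Taking the highest row changed only the totals, as each of the 4 has a single row. The ratio of miR-199a-3p ranged from 2.97 to 3.26 and from 3.41 to 3.90 in the comparisons with the untreated library. DESeq2 size factors moved every log2 ratio by 0.12 and 0.18 in those comparisons, TMM factors by 0.07 and 0.12 and the authors' normalization by 0.09 and 0.17. Over all miRNAs, 177 (inflammatory mixture against untreated), 177 (IL-4/C1q against untreated) and 11 (between the treated libraries) were called. With a count minimum of 10 these were 332, 319 and 56, with none 436, 435 and 90, because rows with few counts then enter. A 1.5-fold minimum gave 280 for the inflammatory mixture against untreated, 258 for IL-4/C1q against untreated and 41 between the treated libraries. Rows without substitution tags gave 7 between the treated libraries, with fewer miRNAs tested. Leaving out miR-199b-5p, the 3p share of miR-199 reads was 75.6%, 75.7% and 73.0% in place of 71.6%, 71.9% and 69.4%, as fewer 5p reads are counted. With a minimum of 50 counts each arm has a single row, so no share of length variants can be given. Leaving out a library was not possible, since it empties a condition. No paired analysis was possible because each condition is 1 library.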
